A study of Mus musculus with 6 samples.

Results

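The endoplasmic reticulum (ER) folds, checks and exports secreted and membrane proteins, and 40 genes of that machinery were followed here in 661W cells kept in light or in darkness. They were chosen by name from the 24879 lines of the deposited expression table, where all 40 were found: 12 chaperones and co-chaperones, 7 enzymes of disulphide bonding, 10 factors of ER-associated degradation, 4 stress sensors or their transcription factors, and 7 subunits of the translocon and its partner complex. 661W is an immortalised mouse line derived from a retinal tumour of mice that carry the SV40 large T antigen under a photoreceptor gene promoter, and it is widely used as a cone photoreceptor model. The Light group (3 libraries) was exposed for 24 h to a cold white fluorescent lamp at 2000 ± 100 lux, and the Dark group (3 libraries) spent the same 24 h without light. Both groups are cultures of this 1 line in serum-containing medium, and the labels name no other agent or change in either. The design asks which transcripts differ after 24 h of light.

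In the ER lumen, BiP and its co-chaperones hold unfolded chains, the lectins calnexin and calreticulin hold glycoproteins, and disulphide isomerases, recharged by ERO1 oxidases, join cysteines. Chains that fail to fold are trimmed by EDEM proteins, handed to the HRD1 ubiquitin ligase and drawn back to the cytosol for the proteasome. When unfolded proteins build up, the sensors IRE1, ATF6 and PERK start the unfolded protein response: IRE1 splices Xbp1 mRNA and ATF6 is cut to a transcription factor, and both raise chaperone and degradation genes, while PERK slows translation and favours ATF4. Photoreceptors make large amounts of opsin, a membrane protein that passes through the translocon, and depend on this machinery.

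The elements through which ATF6 and XBP1 act were looked for in the promoter windows of RefSeq (250 bases before to 50 after each start, GRCm38.p6), which held 34 of the 40 members. Hyou1, Manf, Derl1, Atf6, Sec61a1 and Ssr2 had no entry. The ER stress response element (ERSE) was searched on both strands as CCAAT, 9 bases of any kind, then CCACG. It was found in 10 members, 29.4% of those matched, against 0.137% of the 27025 genes with a window. The element ERSE-II, searched as ATTGG, 1 base of any kind, then CCACG, was in Herpud1 and Dnajb11 (5.88% of matched members, against 0.0444% of genes). The composite site of C/EBP and ATF proteins, TTGCATCA, was in Herpud1 alone (2.94%, against 1.03% of genes), and the core TGACGTGG of another unfolded protein response element was in 0 members (0.714% of genes). Such a match is a description of the letters and not a binding site. The stretches below carry these elements in genes that were lower, not called or higher in Light, each with 10 bases on either side. They are read 5′ to 3′ on the gene's strand, with the elements in capitals. An ERSE on the opposite strand reads as CGTGG, 9 bases, then ATTGG, whereas the ERSE-II of Herpud1 lies on the gene's own strand.
Hspa5: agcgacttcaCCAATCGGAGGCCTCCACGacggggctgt
Hsp90b1: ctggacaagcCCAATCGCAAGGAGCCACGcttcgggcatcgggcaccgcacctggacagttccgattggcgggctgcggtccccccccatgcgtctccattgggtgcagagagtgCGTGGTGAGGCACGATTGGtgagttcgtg
Canx: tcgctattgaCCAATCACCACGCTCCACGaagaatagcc
Dnajc3: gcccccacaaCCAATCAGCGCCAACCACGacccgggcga
Syvn1: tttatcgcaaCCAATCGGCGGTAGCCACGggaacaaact
Calr: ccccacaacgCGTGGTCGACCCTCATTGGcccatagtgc
Pdia6: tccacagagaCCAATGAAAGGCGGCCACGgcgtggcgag
Creld2: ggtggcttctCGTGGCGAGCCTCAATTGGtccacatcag
Herpud1: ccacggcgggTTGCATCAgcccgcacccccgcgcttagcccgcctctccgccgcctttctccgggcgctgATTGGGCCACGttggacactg

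The Hspa5 stretch is chr2:34772015-34772053 on the plus strand, with its element at positions -65 to -47 from the start. The Hsp90b1 stretch, chr10:86705523-86705666 on the minus strand, holds 1 element at -212 to -194 and 1 on the opposite strand at -107 to -89. Those of Canx (chr11:50325790-50325828) and Calr (chr8:84847065-84847103) also lie on the minus strand. Those of Dnajc3 (chr14:118937817-118937855), Syvn1 (chr19:6046522-6046560), Pdia6 (chr12:17266481-17266519) and Creld2 (chr15:88819510-88819548) lie on the plus strand. In Herpud1 (chr8:94386307-94386397, plus strand) the composite site is at -112 to -105 and the ERSE-II at -52 to -42. Derl3 and Ero1lb hold the other ERSE matches, and the ERSE-II of Dnajb11 lies after its start.

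**Figure D1:**
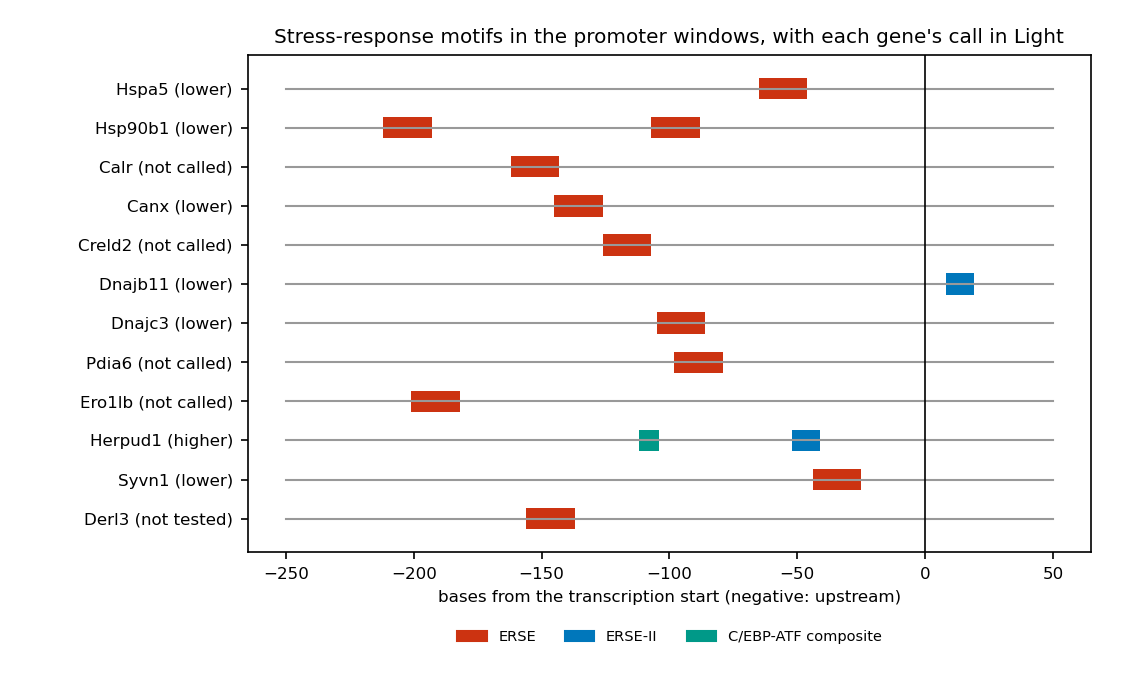
Positions of the 3 kinds of element found in 12 members' promoter windows, in bases from the transcription start (vertical line at 0), with each gene's call in Light beside its name. Of the 9 tested genes with an ERSE 5 were lower (55.6%, against 16.4% of all genes), 4 were not called and 0 were higher (against 19.2%). Herpud1, with an ERSE-II and a composite site, was higher.

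Expression was deposited as FPKM, fragment counts scaled to transcript length and library size, so levels can be compared between genes per length. FPKM summed to 459198 to 471471 per Light library and 411186 to 434372 per Dark library. The depth behind each value is unknown, so precision rests on the spread among 3 libraries a group. Nothing in the labels says that replicates were separate cultures, and the p-values measure a spread that may be technical. All 8 cone marker genes examined had means under 1 FPKM, 3 of them at 0 in every library, and their sum was 0.950 to 1.37 FPKM in Light and 0.949 to 2.04 FPKM in Dark. The 5 fibroblast markers summed to 336 to 364 FPKM in Light and 680.1 to 787 FPKM in Dark, with 3 of the 5 at a mean of 1 FPKM or more. The 5 markers of microglia and macrophages, 1 of them at that level, summed to 7.96 to 9.97 FPKM in Light and 3.96 to 4.98 FPKM in Dark, and the 4 of Mueller glia, all at that level, to 1097 to 1114 FPKM in Light and 920.0 to 1085 FPKM in Dark. The part of other cell states or types in the results below was not tested. The rod, endothelial and pigment epithelium markers all had means under 1 FPKM, as did the 2 markers of both photoreceptors. Of the 4 secretory plasma cell markers 3 were found, 1 of them at a mean of 1 FPKM or more. They summed to 46.2 to 49.8 FPKM in Light and 44.7 to 53.6 FPKM in Dark. In bulk RNA, fewer cells of a type and less RNA per cell cannot be told apart.

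Most of the ER folding genes that changed in Light were lower. Of the 5 increases 3 were of degradation factors (33.3% of the 9 tested, against 19.2% of all genes). Of these 3 only Herpud1 stayed called once trends with transcript length and GC content were removed, and likewise with equal FPKM totals. Of the 38 members with a mean of at least 1 FPKM, 18 passed an adjusted p of 0.05 (47.4%, against 35.6% of all 11068 genes tested). In Light 13 members were lower (34.2%, against 16.4% of all genes) and 5 were higher (13.2%, against 19.2% of all genes). The changes were modest: the median was -0.12 on the log2(FPKM + 1) scale, against -0.01 for all genes, and no member changed by 2-fold. The 3 Light libraries lay wholly apart from the 3 Dark libraries in 25 members, against 52.6% of all genes: above Dark in 6 (28.2% of all genes) and below it in 19 (24.4% of all genes). Scaling every library to the same FPKM total moved the median of all genes to -0.13 and gave 1 higher and 20 lower members, against 11.0% and 26.2% of all genes. The number of members called was 3 (7.89%) without Light 2, Light 3 or Dark 3, where 11.9%, 11.1% and 11.5% of all genes were called. It was 13 (34.2%, against 31.3% of all genes) without Light 1, 11 (28.9%, against 23.8%) without Dark 1 and 21 (55.3%, against 53.1%) without Dark 2. The members' total share thus lay near that of all genes or below it in most of these fits. It was also near it with median centring, at 36.8% against 35.2% of all genes. With no filter on low values 17.5% of members were called, against 13.5% of all genes: Dnajb11, Dnajc3, Pdia3, Pdia4, Herpud1, Syvn1 and Ssr1. Median centring ended the calls of Hspa5, Canx, Dnajb11 and Ern1. Exons of the antisense or opposite-strand neighbours overlap those of Hsp90b1 (415 bases), Sec61a1 (549 bases), Ssr2 (239 bases) and Manf (146 bases with Dcaf1), and without a known strand setting such reads cannot be told apart.

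**Figure D2:**
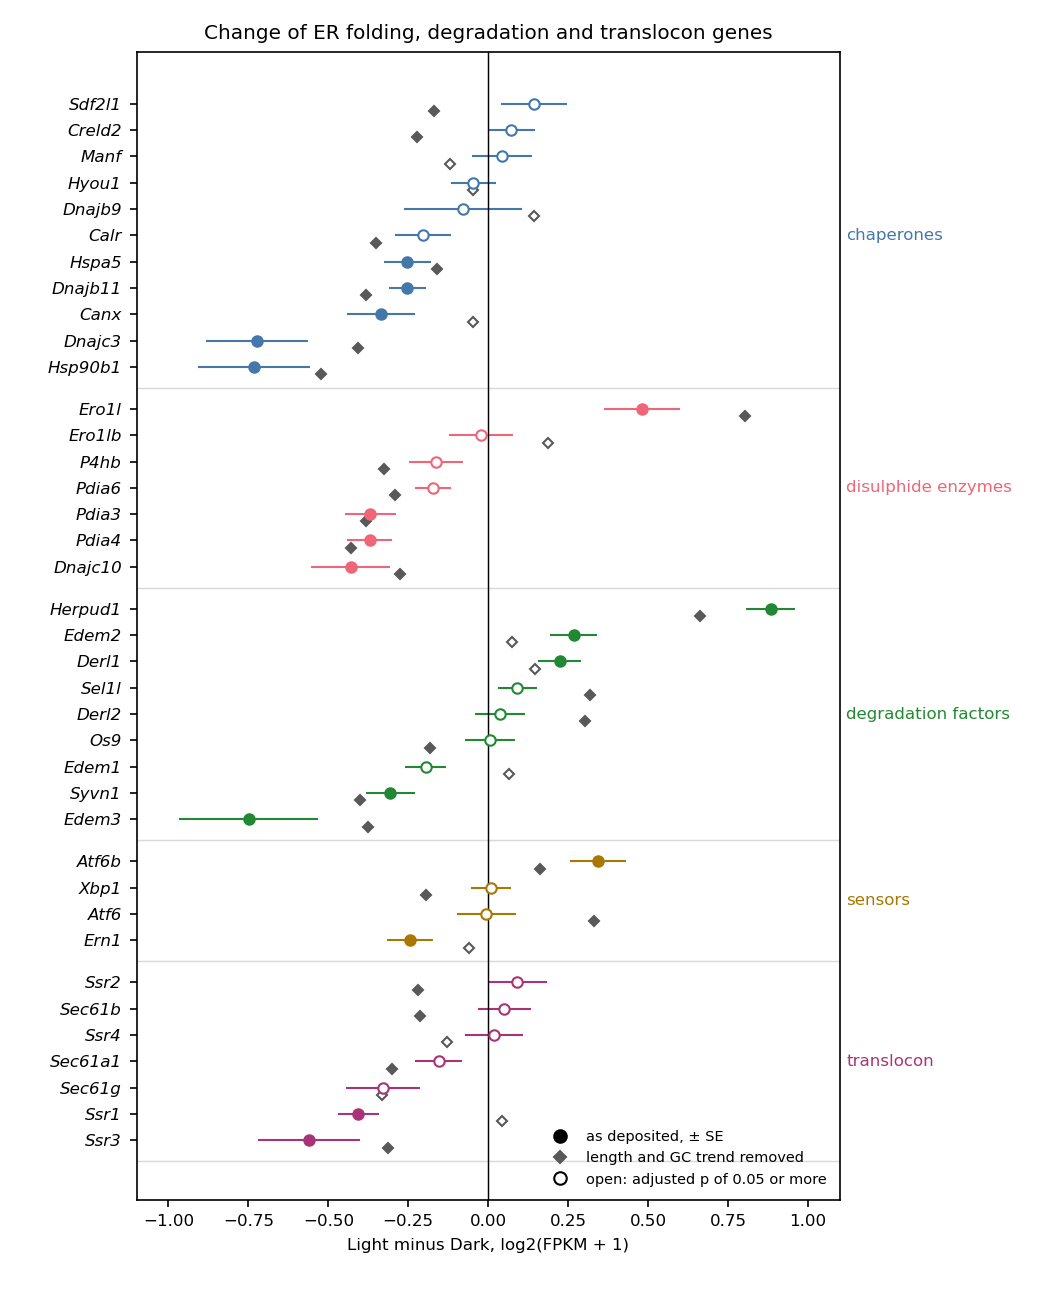
Light minus Dark difference of each of the 38 tested members on the log2(FPKM + 1) scale, by role, as deposited (circles ± SE from limma, 3 libraries a group) and after removal of each library's trend with transcript length and GC content (diamonds). Filled symbols passed an adjusted p of 0.05. As deposited 5 of 11 chaperones were lower (45.5%, against 16.4% of all genes) and 0 higher (against 19.2%), whereas Herpud1 stood at 0.88.

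Among the chaperones, 5 of 11 tested fell in Light (45.5%, against 16.4% of all genes) and 0 rose (against 19.2%), with a median of -0.20. Hspa5, which encodes BiP, the central chaperone of the lumen and the brake on all 3 sensors, had 308, 278 and 297 FPKM in Light libraries 1 to 3, against 361, 330.4 and 361 FPKM in Dark libraries 1 to 3. Every Light library lay below every Dark library, and the difference was small: -0.25 ± 0.07 (SE, limma with Benjamini-Hochberg adjustment, adjusted p = 0.0372). Hsp90b1, the gene of the lumenal HSP90 paralogue, had 211, 165 and 184 FPKM in Light and 392, 244 and 310.0 FPKM in Dark. Dark 1 was the highest and Light 2 the lowest of its libraries, with no overlap, and the mean in Light was 0.592 times that in Dark (-0.73 ± 0.18, adjusted p = 0.0204). Dnajc3, a lumenal J-domain co-chaperone of BiP, had 15.2, 11.7 and 13.0 FPKM in Light and 27.8, 18.1 and 22.7 FPKM in Dark. It differed by about as much, with a ratio of 0.582 and no overlap (-0.72 ± 0.16, adjusted p = 0.0159).

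Dnajb11, the J-domain co-chaperone that brings unfolded chains to BiP, showed 67.4, 70.8 and 68.8 FPKM in Light and 81.0, 84.9 and 81.4 FPKM in Dark. Its 2 groups were tight and apart (-0.25 ± 0.06, adjusted p = 0.0179). The 2 lectin chaperones both lay below Dark in every Light library. Canx, calnexin of the ER membrane, had 128, 106 and 114 FPKM in Light and 164, 129.9 and 146 FPKM in Dark (-0.34 ± 0.11, adjusted p = 0.046). Calr, the soluble lectin calreticulin and the most abundant member per length, had 619, 656 and 633 FPKM in Light and 674, 810.2 and 721 FPKM in Dark, and missed the threshold (-0.20 ± 0.09, adjusted p = 0.101). Calr has a pseudogene copy, Calr-ps, 92.5% identical over 495 bases, to which its reads may have been split.

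The other chaperone genes did not pass and had overlapping groups. They included the inducible stress genes Sdf2l1 (0.14 ± 0.10, adjusted p = 0.286), Creld2 (0.07 ± 0.07, adjusted p = 0.441) and Manf (0.04 ± 0.09, adjusted p = 0.732). Hyou1, the nucleotide exchange factor of BiP, averaged 70.8 ± 2.55 FPKM in Light and 73.2 ± 4.95 FPKM in Dark (SD, n = 3 each). Dnajb9, a BiP co-chaperone that represses IRE1 and a known XBP1 target, was low, at 3.58 ± 0.540 FPKM in Light and 3.92 ± 1.15 FPKM in Dark, and a pseudogene, Gm6568, matches it at 93.3%. Serpinh1, the collagen chaperone, was too low to test, with 0.538, 0.638 and 0.599 FPKM in Light and 0.638, 0.848 and 0.445 FPKM in Dark. Its groups overlapped.

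All 5 chaperone calls held without Dark 2 (adjusted p up to 0.0143), and those of Hsp90b1 and Dnajc3 also without Light 1 or Dark 1. Without Light 2, Light 3 or Dark 3 in turn, 0 of the 5 held: adjusted p was 0.0582 to 0.0805 for Dnajb11, 0.0619 to 0.0666 for Dnajc3, 0.0722 to 0.0825 for Hsp90b1, 0.117 to 0.138 for Hspa5 and 0.125 to 0.158 for Canx. Hspa5 was also lost without Light 1 (0.0525) or Dark 1 (0.0714), Dnajb11 without Light 1 (0.0510) and Canx without Dark 1 (0.0929), whereas Sdf2l1 passed without Dark 2 (0.0473). Once the trends with transcript length and GC content were removed, Canx stood at -0.05 (adjusted p = 0.397) and Calr at -0.35 (adjusted p = 0.00254). Under that setting Dnajc3 was -0.41 and Hspa5 was -0.16, both still called, and Sdf2l1 and Creld2 were called lower, at -0.17 and -0.22.

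Disulphide enzymes changed in both directions, with 3 of 7 lower (42.9%, against 16.4% of all genes), 1 higher (14.3%, against 19.2%) and a median of -0.17. Pdia4, an isomerase with several thioredoxin domains, had 101, 88.6 and 90.9 FPKM in Light and 124, 121 and 118 FPKM in Dark. Its groups lay well apart and its call was among the firmest of the members (-0.37 ± 0.07, adjusted p = 0.00997), lost only without Light 3 (0.0567). Pdia3, the isomerase that works with calnexin and calreticulin, had 215, 192 and 197 FPKM in Light and 275, 243 and 262 FPKM in Dark, again without overlap (-0.37 ± 0.08, adjusted p = 0.0143). Dnajc10, a J-domain reductase that opens disulphides of chains bound for degradation, had 28.3, 22.4 and 24.4 FPKM in Light and 38.6, 29.1 and 34.7 FPKM in Dark. Light 1 came close to Dark 2 without reaching it (-0.43 ± 0.12, adjusted p = 0.034).

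Ero1l, the oxidase that passes electrons from disulphide isomerases to oxygen, moved the other way. It had 22.7, 19.5 and 20.4 FPKM in Light and 17.5, 12.6 and 14.2 FPKM in Dark, and every Light library was above every Dark library (0.48 ± 0.12, ratio of means 1.41, adjusted p = 0.0222). With the length and GC trends removed its difference was 0.80 ± 0.05 (adjusted p = 5.08e-05), and with equal FPKM totals it missed the threshold (0.0863). Its paralogue Ero1lb was low and did not pass, at 2.54 ± 0.245 FPKM in Light and 2.59 ± 0.183 FPKM in Dark (adjusted p = 0.874), and a pseudogene, Gm18562, matches it at 98.0%. P4hb, the classic isomerase and a subunit of collagen prolyl 4-hydroxylase, had 545, 588 and 571 FPKM in Light and 603, 698 and 612 FPKM in Dark. Those groups did not overlap, but the test was not passed (-0.16 ± 0.08, adjusted p = 0.153). Pdia6, which acts on BiP-bound chains, averaged 132 ± 0.361 FPKM in Light and 149 ± 3.17 FPKM in Dark and lay just beyond the threshold (-0.17 ± 0.06, adjusted p = 0.0512), which it passed without Dark 2 (0.0446).

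Calls of Pdia3 and Dnajc10 were lost without Light 2 (adjusted p = 0.0665 and 0.121), without Light 3 (0.0689 and 0.109) and without Dark 3 (0.0638 and 0.107), and that of Dnajc10 also without Dark 1 (0.0653). Ero1l was lost without any 1 of the Light libraries (0.0543 to 0.0736) and without Dark 3 (0.0821). Removing the length and GC trends kept all 4 calls and added Pdia6 (-0.29) and P4hb (-0.33) as lower, with Dnajc10 at -0.28. That made 5 of 7 disulphide genes lower (71.4%, against 19.1% of all genes).

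**Figure D3:**
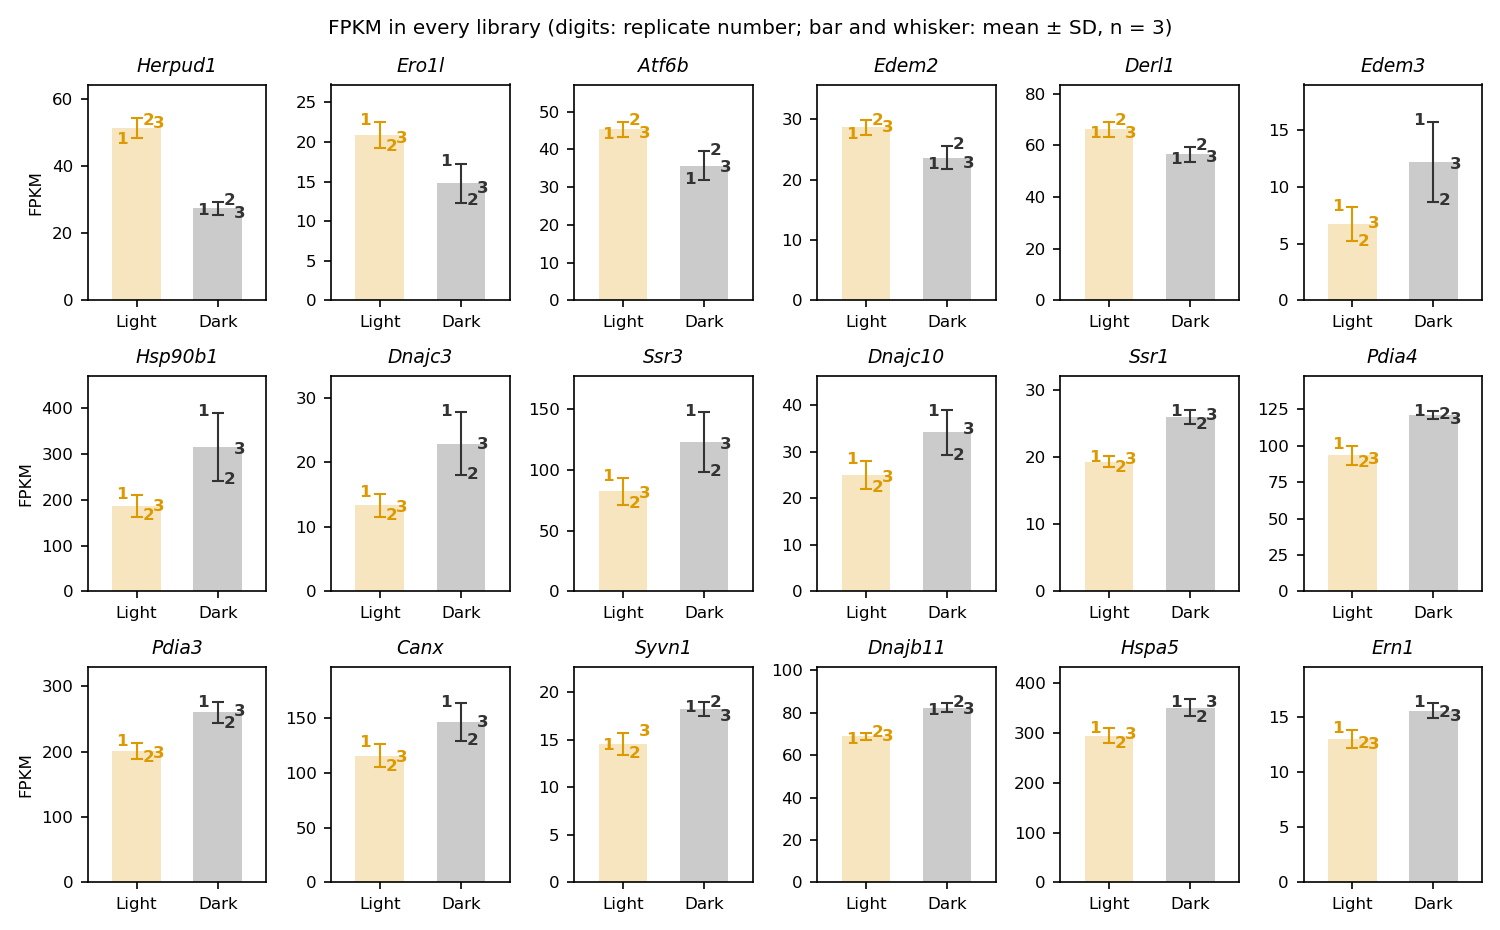
FPKM of the 18 called members in each library, with Light at the left of each panel and Dark at the right; digits are replicate numbers, bars are means and whiskers are SD (n = 3 a group). In each panel the 3 Light libraries lie wholly above (Herpud1, Ero1l, Atf6b, Edem2, Derl1) or wholly below (the other 13 genes) the 3 Dark libraries.

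Degradation factors held 3 of the 5 members that were higher, beside 2 that were lower, and had a median of 0.04 over 9 tested. Of those tested 33.3% were higher and 22.2% lower, against 19.2% and 16.4% of all genes. Herpud1 (chr8:94386438-94395377, plus strand, GENCODE M21), whose membrane protein HERP helps assemble the HRD1 ligase, had 48.1, 53.6 and 52.8 FPKM in Light and 26.8, 29.7 and 25.9 FPKM in Dark. No Light library came near a Dark one, and the ratio of means, 1.87, was the largest among the 40 members (0.88 ± 0.08, adjusted p = 0.000542). It passed in every fit that left out 1 library (adjusted p up to 0.00677), and with the length and GC trends removed it stood at 0.66 (adjusted p = 7.61e-05). Derl1, a rhomboid-like protein of the retrotranslocation channel, had 64.5, 69.7 and 64.5 FPKM in Light and 54.6, 59.8 and 55.3 FPKM in Dark. The gap was narrow but without overlap (0.22 ± 0.07, adjusted p = 0.0392), and a pseudogene, Gm35638, matches it at 95.4%. Edem2, which starts mannose trimming of misfolded glycoproteins, had 27.4, 29.8 and 28.7 FPKM in Light and 22.6, 25.8 and 22.6 FPKM in Dark, also without overlap (0.27 ± 0.07, adjusted p = 0.0315).

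Syvn1, which encodes the ubiquitin ligase HRD1 itself, went against Herpud1. It had 14.4, 13.6 and 15.9 FPKM in Light and 18.4, 18.9 and 17.5 FPKM in Dark, without overlap (-0.31 ± 0.08, adjusted p = 0.0227). Its exons share 91 bases with Mrpl49 on the opposite strand, a gene at 40.4 FPKM, and the read strand setting is not known, so its reads cannot be told apart there. Edem3, a further mannose-trimming enzyme, had 8.24, 5.22 and 6.81 FPKM in Light and 15.8, 8.79 and 11.9 FPKM in Dark. Its libraries were scattered within each group, and Light 1 lay only just below Dark 2 (-0.75 ± 0.22, ratio of means 0.554, adjusted p = 0.0365). As deposited the 3 mannose-trimming genes thus differed in sign. Edem1 had 14.1 ± 0.519 FPKM in Light and 16.3 ± 0.538 FPKM in Dark, just short of the threshold (-0.20 ± 0.06, adjusted p = 0.0503). With the length and GC trends removed Edem3 was still called (-0.38), and Edem2 (0.08) and Edem1 (0.07) were not.

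Sel1l, the HRD1 adaptor, averaged 16.5 ± 0.316 FPKM in Light and 15.5 ± 0.443 FPKM in Dark (adjusted p = 0.256), with every Light library above every Dark one. Os9, a lectin that delivers glycoproteins to that complex, had 42.3, 42.9 and 43.5 FPKM in Light and 39.3, 47.2 and 42.1 FPKM in Dark. The Light values lay inside the Dark range (0.01 ± 0.08, adjusted p = 0.962). Derl2 averaged 16.1 ± 0.887 FPKM in Light and 15.7 ± 1.15 FPKM in Dark (adjusted p = 0.726), and shares 231 exonic bases with Mis12 on the opposite strand. Derl3 was too low to test, with 0.142, 0.227 and 0.132 FPKM in Light and 0.185, 0.277 and 0.343 FPKM in Dark, which overlapped.

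The smaller degradation calls depended on single libraries. Derl1 kept its call without Dark 2 (0.0137), and had an adjusted p of 0.0643 to 0.142 when any other library was left out. Edem2 was lost without Light 2 (0.115), Light 3 (0.105), Dark 1 (0.075) or Dark 3 (0.114), and Edem3 without Light 2 (0.124), Light 3 (0.1), Dark 1 (0.0646) or Dark 3 (0.105). Syvn1 was lost without Light 1 (0.0528), Light 2 (0.086) or Dark 3 (0.0632), and Edem1 was called without Dark 2 (0.0344). With the length and GC trends removed, Derl1 (0.15, adjusted p = 0.0534) and Edem2 (0.08, adjusted p = 0.207) lost their calls and Edem3 was -0.38. Sel1l and Derl2 then passed as higher, at 0.32 and 0.30, and Os9 as lower, at -0.18. With equal FPKM totals Derl1 (0.212) and Edem2 (0.113) were not called either, which left Herpud1 as the 1 member called higher.

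The sensors showed small differences of either sign, with 1 of 4 higher, 1 lower (25% each, against 19.2% and 16.4% of all genes) and a median of 0.00. Ern1, the gene of IRE1, the kinase and ribonuclease that splices Xbp1 mRNA, had 13.9, 12.5 and 12.5 FPKM in Light and 16.3, 15.3 and 15.0 FPKM in Dark. The groups did not overlap (-0.24 ± 0.07, adjusted p = 0.0377). Atf6b, a homologue of ATF6, had 44.1, 47.7 and 44.3 FPKM in Light and 32.0, 39.8 and 35.2 FPKM in Dark. Each Light library was above each Dark library (0.34 ± 0.09, adjusted p = 0.0244). Xbp1, which FPKM per gene measures without telling the spliced from the unspliced form, had 40.8, 43.8 and 43.6 FPKM in Light and 41.1, 44.4 and 41.9 FPKM in Dark. Its groups overlapped (0.01 ± 0.06, adjusted p = 0.915), as did those of Atf6, at 7.66 ± 0.769 FPKM in Light and 7.68 ± 0.443 FPKM in Dark (adjusted p = 0.962).

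Leaving out Light 2, Light 3 or Dark 3 ended the calls of Ern1 (adjusted p = 0.127, 0.135 and 0.0921) and Atf6b (0.0956, 0.0771 and 0.0863), and leaving out Dark 1 that of Ern1 (0.101). After removal of the length and GC trends Ern1 stood at -0.06 (adjusted p = 0.411) and Atf6b at 0.16 (adjusted p = 0.0292), while Atf6 was 0.33 and Xbp1 -0.19, both called. With equal FPKM totals Atf6b missed the threshold (0.0572).

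Of the 7 translocon genes 2 fell (28.6%, against 16.4% of all genes), 0 rose (against 19.2%) and the median was -0.15. Both that fell belong to the TRAP complex, which sits beside the SEC61 channel and helps some signal sequences insert. Ssr1, its alpha subunit (chr13:37966605-37994217, minus strand, GENCODE M21), had 19.9, 18.4 and 19.7 FPKM in Light and 26.8, 24.8 and 26.2 FPKM in Dark. Both groups were tight and far apart (-0.41 ± 0.06, adjusted p = 0.00536), and the call held without any 1 library (adjusted p up to 0.0334). Yet with the length and GC trends removed Ssr1, whose longest transcript of 9333 bases is the longest among the members, stood at 0.04 ± 0.08 (adjusted p = 0.693). Ssr3, the gamma subunit, had 94.6, 72.1 and 80.5 FPKM in Light and 148, 98.9 and 121 FPKM in Dark. Light 1 was just below Dark 2 (-0.56 ± 0.16, adjusted p = 0.0344). The call was lost without Light 2 (0.123), Light 3 (0.106), Dark 1 (0.0542) or Dark 3 (0.101), and the difference was -0.31 with the trends removed (adjusted p = 0.00406).

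The other TRAP subunits did not pass. Ssr2, the beta subunit and the most abundant translocon gene, had 268, 299 and 289.7 FPKM in Light and 239, 289 and 277 FPKM in Dark, with overlap (0.09 ± 0.09, adjusted p = 0.444). Ssr4, the delta subunit, averaged 90.4 ± 2.79 FPKM in Light and 89.6 ± 9.97 FPKM in Dark (adjusted p = 0.882). So within the 1 complex, as deposited, Ssr1 and Ssr3 were lower and Ssr2 and Ssr4 were not called. With the length and GC trends removed, Ssr2 (-0.22) and Ssr3 (-0.31) were called lower, and Ssr1 (0.04) and Ssr4 (-0.13) were not called.

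None of the 3 channel genes passed. Sec61b, the beta subunit, had 171, 182 and 184 FPKM in Light and 156, 177 and 186 FPKM in Dark, with overlap (0.05 ± 0.08, adjusted p = 0.638). Sec61a1, the pore-forming subunit, averaged 109 ± 2.12 FPKM in Light and 121 ± 9.66 FPKM in Dark (-0.15 ± 0.07, adjusted p = 0.131), without overlap. Sec61g averaged 43.3 ± 3.58 FPKM in Light and 54.9 ± 8.06 FPKM in Dark and came near the threshold (-0.33 ± 0.12, adjusted p = 0.0594), which it passed without Dark 1 (0.0177). The transcribed pseudogene Gm10177 is 100% identical to it over 420 bases, so its value is uncertain. Removing the length and GC trends made Sec61a1 (-0.30), Sec61b (-0.21) and Ssr2 (-0.22) pass as lower.

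Summed over each role, the level in Light against Dark was lower for chaperones, at 1610.0 ± 21.2 FPKM in Light and 1939.9 ± 21.1 FPKM in Dark (SD, n = 3 each). Disulphide enzymes summed to 1043 ± 4.97 FPKM in Light and 1219 ± 35.4 FPKM in Dark, and translocon genes to 808 ± 12.7 FPKM in Light and 856 ± 41.6 FPKM in Dark. Degradation factors summed to 257 ± 4.45 FPKM in Light and 229 ± 7.16 FPKM in Dark, and without Herpud1 to 206 ± 1.52 FPKM in Light and 201 ± 5.17 FPKM in Dark. Sensors summed to 109 ± 1.96 FPKM in Light and 101 ± 5.15 FPKM in Dark. Since FPKM totals were larger in Light, shares of the total differ from these sums: degradation factors took 0.0554% in Light and 0.0543% in Dark, or 0.0443% in Light and 0.0478% in Dark without Herpud1, and sensors took 0.0234% in Light and 0.0241% in Dark. Together the 40 genes took 0.823% ± 0.0120 of all FPKM in Light and 1.03% ± 0.0177 in Dark. Calr, P4hb, Hspa5 and Ssr2 had the highest means among the members and so weighed most in the sums. In FPKM, Hsp90b1 differed most between the groups, with means of 187 in Light and 315 in Dark. Ssr2 had the higher mean in Light, at 285 against 269 in Dark. Whether the roles differ from one another was not tested.

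Most of the members that were lower had transcripts of low GC content. The longest transcript of the 13 lower members had a median GC content of 44.9% (range 40.8% to 56.6%) and a median length of 4042 bases, with Dnajb11 (50.5%, 2513 bases) and Syvn1 (56.6%) among the exceptions. The 5 higher members had medians of 53.0% and 2566 bases, and all genes tested 49.8% and 3419.5 bases. When all genes were ranked by GC content and cut into 10 bins of about equal size, the lowest bin had a median difference of -0.42 between Light and Dark and the highest bin 0.17. In 9 of the 13 lower members library 1 was the highest and library 2 the lowest in both groups. How often all genes lower in Light had that order was not counted. Among the 9 members, Hsp90b1 differed by 0.36 between Light 1 and Light 2 and by 0.68 between Dark 1 and Dark 2, on the log2 scale. That order was found in 10 of the 38 tested members (26.3%) and in 23.1% of all genes, and the reverse order also in 10 members (26.3%), among them Calr, P4hb and Ssr2, and in 15.9% of all genes. The part of GC content and library order in the members' changes was not tested beyond the removal of the trends.

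**Figure D4:**
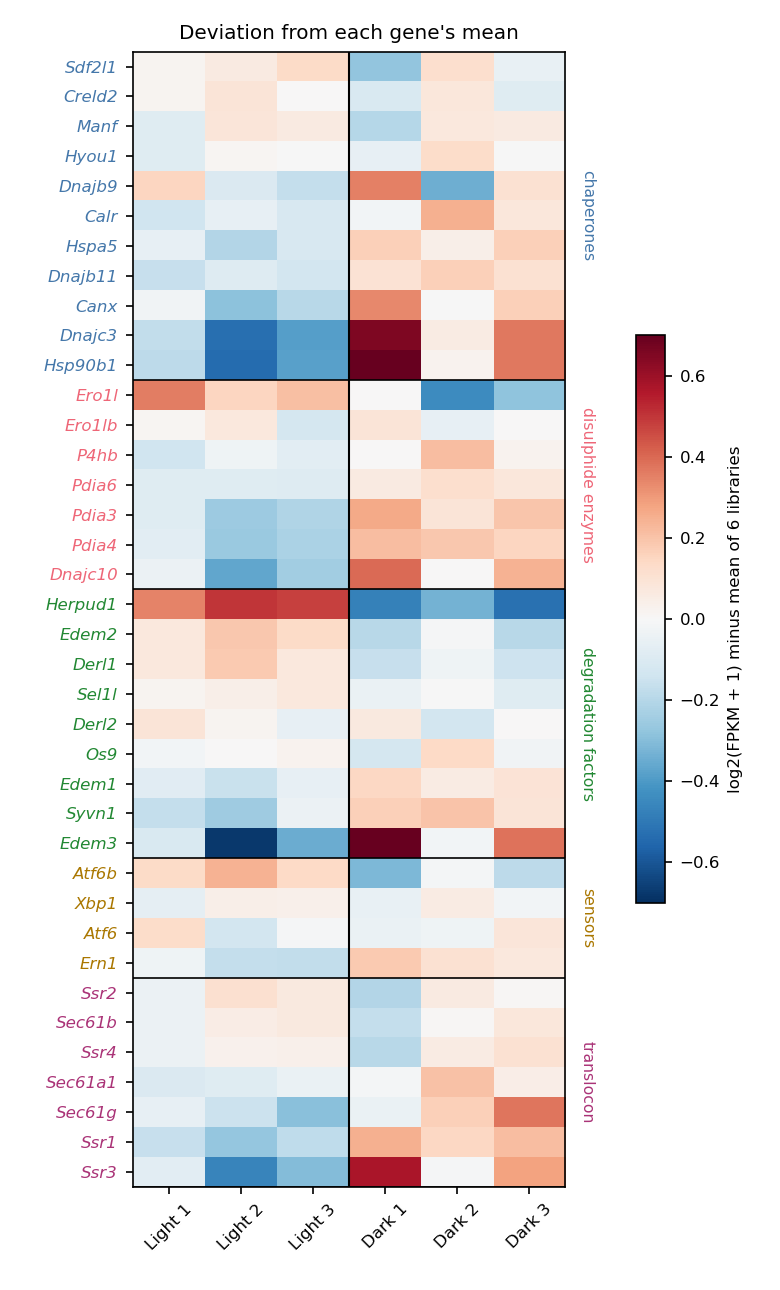
Each tested member's deviation from its own mean over 6 libraries on the log2(FPKM + 1) scale (red above, blue below), with the 3 Light libraries at the left and the 3 Dark libraries at the right of the vertical line. Dark 1 is the darkest red and Light 2 the darkest blue for Hsp90b1, Edem3 and Ssr3, while Herpud1 is red in all 3 Light libraries and blue in all 3 Dark libraries.

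With the trends of length and GC content removed, the members' median stayed below 0 and more members passed, but some members changed sign. In Light 20 members were then lower (52.6%, against 19.1% of all 10664 genes with a transcript). Higher were 6 (15.8%, against 19.9% of those genes), and the median was -0.18. Of the 18 calls 13 remained, and Canx, Derl1, Edem2, Ern1 and Ssr1 were lost. Calls gained as lower were Calr, Sdf2l1, Creld2, Pdia6, P4hb, Os9, Xbp1, Sec61a1, Sec61b and Ssr2, and calls gained as higher were Sel1l, Derl2 and Atf6. Among them Sdf2l1, Creld2, Os9, Xbp1, Sec61b and Ssr2 had stood above 0 as deposited (0.01 to 0.14), and Atf6 just below it (-0.01). Chaperones then stood at 7 lower and 0 higher of 11, and the largest increases were those of Ero1l (0.80) and Herpud1 (0.66).

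**Figure D5:**
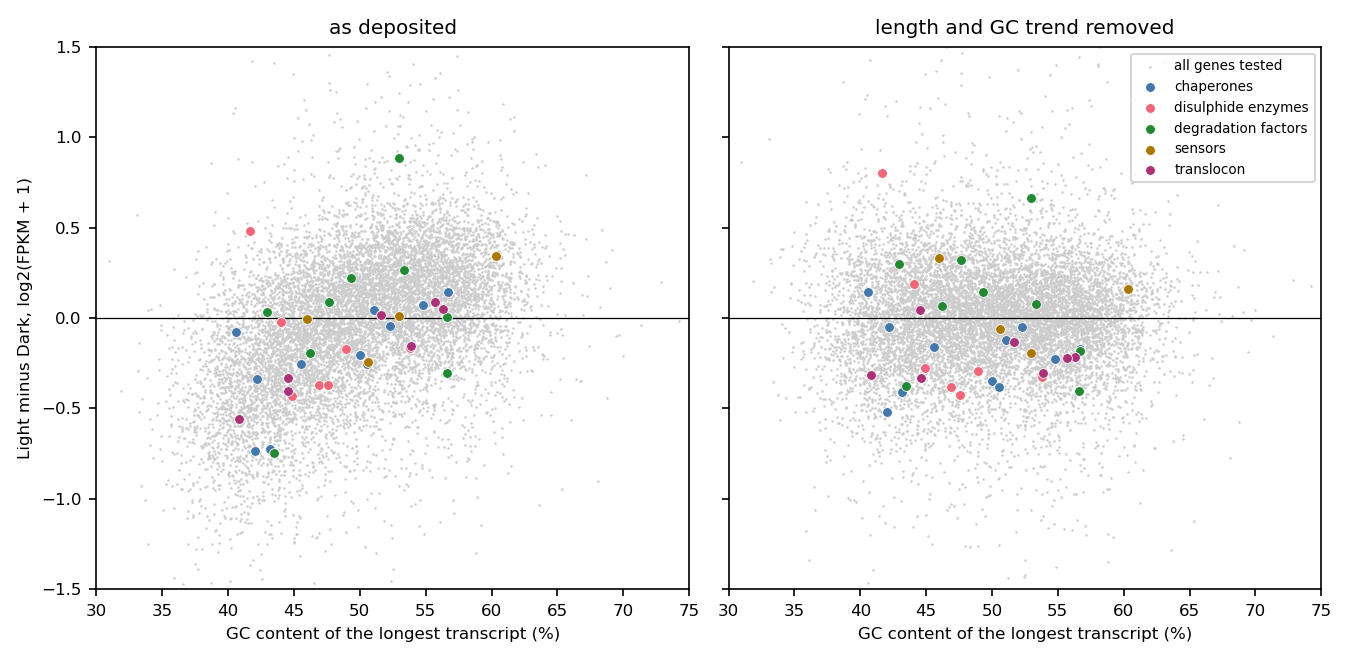
Light minus Dark difference on the log2(FPKM + 1) scale against the GC content of each gene's longest transcript, for all tested genes with a transcript (grey) and the members by role (colours), as deposited (left panel) and with each library's length and GC trend removed (right panel). Differences beyond 1.5 are not drawn. As deposited the cloud slopes upward, with a median of -0.42 in the lowest of 10 GC bins and 0.17 in the highest, and 8 of 11 chaperones lie below 0 as deposited, 10 of 11 with the trend removed.

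Beside the promoter elements shown above, 5 of the 9 tested ERSE genes were lower in Light: Hspa5, Hsp90b1, Canx, Dnajc3 and Syvn1. That is 55.6%, against 34.2% of all tested members and 16.4% of all genes. Calr, Creld2, Pdia6 and Ero1lb were not called, and 0 were higher, against 19.2% of all genes. The median of the 9 was -0.25. With the length and GC trends removed Canx was not called, and Calr, Creld2 and Pdia6 were called lower. Of the 27 other genes with an ERSE 5 were tested and 0 were called. Herpud1 and Dnajb11, the members with an ERSE-II, had opposite signs, at 0.88 and -0.25. Outside the members, 58 tested genes shared the composite site of Herpud1. Of these 24 were higher (41.4%, against 19.2% of all genes) and 7 lower (12.1%, against 16.4%), with a median of 0.20. The part of the elements in any of these changes was not tested.

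The remaining genes of the pathway were read from 7 lists. In the PERK and ATF4 arm 9 of 12 genes were higher (75%, against 19.2% of all genes) and 1 lower (8.33%, against 16.4%), with a median of 0.98. Atf4, its transcription factor, had 302, 314 and 300.0 FPKM in Light and 152, 158 and 155 FPKM in Dark. The 2 groups were far apart (0.97 ± 0.06, adjusted p = 0.000169), as they were for Ddit3, the factor CHOP, at 51.9 ± 4.05 FPKM in Light and 25.8 ± 0.658 FPKM in Dark (0.98 ± 0.07, adjusted p = 0.000327). Trib3, a pseudokinase induced by both, averaged 46.0 ± 4.83 FPKM in Light and 7.04 ± 0.646 FPKM in Dark (2.55 ± 0.10, adjusted p = 3.06e-05), and Chac1, a glutathione-degrading enzyme, 36.4 ± 4.24 FPKM in Light and 8.49 ± 0.535 FPKM in Dark (1.97 ± 0.09, adjusted p = 7.54e-05). The gene of PERK itself, Eif2ak3, was lower (-0.38 ± 0.08, adjusted p = 0.0131), as Ern1 was among the sensors. Eif2ak3 had 5.58, 5.15 and 5.60 FPKM in Light and 7.51, 7.56 and 7.05 FPKM in Dark. With the length and GC trends removed Eif2ak3 stayed lower (-0.39, adjusted p = 0.00273), and Ern1 was not called (-0.06, adjusted p = 0.411). The name of the list is not a result: PERK activity was not measured, and whether PERK had a part in these increases was not tested.

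Each list is set beside the share of all genes, 19.2% higher and 16.4% lower. In the lectin folding cycle 4 of 9 genes were lower (44.4%), such as Lman1, a cargo receptor for glycoproteins (-0.52, adjusted p = 0.00861), and 1 was higher, the glucosidase gene Mogs (0.31, adjusted p = 0.0175). In signal recognition and translocation 5 of 18 were lower (27.8%) and 1 was higher. The smallest p-values there were those of the translocon-associated genes Tram2 (-0.53, adjusted p = 0.0108) and Tram1 (-0.50, adjusted p = 0.0176), and the largest decrease was that of Spcs3, a signal peptidase subunit (-0.81, adjusted p = 0.0253), which was named after its value was seen. In the oligosaccharyl transferase, which glycosylates chains at the translocon, 4 of 12 were lower (33.3%) and 1 was higher. Among the lower was Stt3b, a catalytic subunit (-0.25, adjusted p = 0.0165), and the higher was Krtcap2 (0.48, adjusted p = 0.0149). Other lumenal folding enzymes gave 2 lower and 2 higher of 20, a smaller share than all genes in each direction, with the prolyl isomerase gene Fkbp14 at -0.46 (adjusted p = 0.00786) and the thioredoxin-like Txndc12 at 0.31 (adjusted p = 0.0103).

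Other ER degradation genes gave 5 higher (20.8%) and 3 lower (12.5%) of 24, close to the shares of all genes. The smallest p-values were those of Ubxn6, a cofactor of the p97 ATPase (0.62 ± 0.10, adjusted p = 0.0066), and Ube2g2, a ubiquitin-conjugating enzyme of this route (0.49 ± 0.11, adjusted p = 0.0175). Processing of ATF6 and IRE1 signals gave 2 higher and 1 lower of 7, with Traf2, an adaptor of IRE1, at 0.30 (adjusted p = 0.021) and Creb3l2, an ATF6-related factor, at -0.43 (adjusted p = 0.00748). With the length and GC trends removed, other lumenal folding enzymes stood at 8 lower and 2 higher (median -0.17), the oligosaccharyl transferase at 6 lower and 1 higher (-0.16), and signal recognition and translocation at 7 lower and 0 higher (-0.11). The lectin cycle then stood at 2 lower and 0 higher (-0.03), ATF6 and IRE1 processing at 2 lower and 1 higher (0.03), other ER degradation at 3 lower and 5 higher (0.07), and the PERK and ATF4 arm at 1 lower and 10 higher (0.80). Mogs then lost its call (0.14, adjusted p = 0.0668). Atf4, Ddit3, Trib3, Chac1, Lman1, Fkbp14, Ubxn6 and Creb3l2 passed in all 6 fits that left out 1 library. Tram2 passed in 5, Eif2ak3 and Txndc12 in 4, and Mogs, Tram1, Spcs3, Stt3b, Krtcap2, Ube2g2 and Traf2 in 3.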

How the data were processed

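Total RNA of 661W cells was extracted with TRIzol and made into libraries with a dual-mode mRNA kit, per the labels' protocols. Reads were aligned with HISAT2 to mm10, per the submitters' processing notes, without a version. Not given in the sources used here are the FPKM program, its annotation, strand setting and depth. The deposited values are gene FPKM as the authors made them, per the file headers. Low values gave no whole-read steps: the most frequent ratio of 2 libraries covered 0.491% to 1.83% of low genes.

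Testing was on log2(FPKM + 1), pseudocount 1, for means of 1 FPKM or more over 6 libraries. limma 3.58.1 (R 4.3.3) was used 2-sided with a group term and trended, robust eBayes moderation. Benjamini-Hochberg adjustment ran over all 11068 genes, and an adjusted p under 0.05 was called. This scale understates changes of low genes. Length and GC content are those of the longest GENCODE M21 transcript, and their trend was removed per library by loess (span 0.5). That transcript need not be the one expressed. Pseudogene copies were found with BLAST 2.17.0. The procedure was checked on simulated data with independent noise for each gene. Such data lack the library order and GC trend shared by genes here, so the check does not cover them.

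Values in every library are given for called members and the 2 most abundant of each role. Outside the members, up to 2 called genes of smallest p per list are named, with Atf4, Ddit3 and Eif2ak3. Members and lists were chosen with earlier results of these data known. Alternatives were other filters, scalings, pseudocount and moderation, the replicate number as a block, and each library left out.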

Additional observations from a re-analysis of the deposited data

How the results depend on the processing

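Directions of the 18 called members were kept under all alternatives except Ssr1, which stood at 0.042 with the length and GC trends removed. Under that setting, with or without the block, 7 members not called as deposited were called with the other sign: Sdf2l1 -0.17, Creld2 -0.22, Os9 -0.18, Xbp1 -0.19, Atf6 0.33, Sec61b -0.21 and Ssr2 -0.22. Manf changed sign to -0.12 and was called with the block. Dnajb9 (0.14), Ero1lb (0.19), Edem1 (0.07) and Ssr4 (-0.13) also changed sign and were not called. The cause was not tested. With no filter on low values 19300 genes were tested, of which 2606 (13.5%) were called, and 7 of the 40 members (17.5%) were called. The 7 were 1 higher and 6 lower (2 chaperones, 2 disulphide enzymes, 2 degradation factors, 0 sensors, 1 translocon gene). Quantile normalization gave 1 sensor and 4 translocon genes, median centring 2 chaperones and 1 sensor, and equal FPKM totals 1 higher, 20 lower, 1 sensor and 4 translocon genes. In these fits 57.9%, 36.8% and 55.3% of members were called, against 34.2%, 35.2% and 37.2% of all genes. Removing the length and GC trends gave 20 lower and 4 translocon genes, with 68.4% of members called, against 39.0% of all genes.

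The replicate numbers were not shown to pair the samples: correlations of same-numbered deviations were 0.687, 0.641 and -0.089, and Light 3 correlated best with Dark 2 (0.0774). With the number as a block 6690 genes (60.4%) and 23 members (60.5%) were called, about equal shares, though 47.4% of members and 30.7% of all genes were lower. With block and trend removal 28 members were called (73.7%, against 51.3% of all genes), 21 of them lower (55.3%, against 25.4%), with 8 chaperones and 4 translocon genes. Leaving out 1 library gave 1228 to 5874 genes called, 3 to 21 members, 1 to 6 higher, 2 to 15 lower, 0 to 6 chaperones, 0 to 5 disulphide enzymes, 1 to 6 degradation factors, 0 to 2 sensors and 1 to 2 translocon genes. A filter at a mean of 5 FPKM, a pseudocount of 0.1 and eBayes without its options gave 20, 19 and 16 members. Those are 55.6%, 50% and 42.1%, against 40.9%, 35.9% and 34.0% of all genes. Without read totals, members under 1 FPKM could not be judged.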
